A study of Mus musculus with 10 samples.

Results

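Extracellular ATP and NAD are handled at the T cell surface by a small set of enzymes and receptors, and 6 of their genes are described here in mouse CD8 T cells kept in low glucose. The genes were taken by name: Entpd1, Nt5e, Cd38, P2rx7, Adora2a and Nampt, 6 of the 53465 genes in the files. Polyadenylated RNA was sequenced from OT-I cells of C57BL/6 mice, whose transgenic T cell receptor recognises an ovalbumin peptide, taken from spleen and peripheral lymph nodes. All 10 libraries share activation with that peptide and recombinant interleukin-2 in 25 mM glucose for 3 days, a move to 1 mM glucose, and a final 4 h of phorbol ester (PMA) and ionomycin. The groups were d9 with 5 mM sodium acetate (n = 3), d9 without acetate (n = 3), d5 with 5 mM sodium acetate (n = 2) and d5 without acetate (n = 2), where d9 means 120 h and d5 24 h in low glucose. Acetate was present for the last day in both acetate groups, which at d5 is the whole of the restriction. Every cell had been restimulated and every cell was restricted, so levels in resting or glucose-fed cells were not analysed here.

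ATP released by stressed or dying cells opens P2X7, a channel that can kill T cells, and is stripped of phosphates in sequence by CD39 (Entpd1) and CD73 (Nt5e) to give adenosine. Adenosine then signals through the receptor encoded by Adora2a, which couples to Gs, raises cyclic AMP and restrains T cell effector function. CD38 (Cd38) consumes extracellular NAD, and NAMPT (Nampt) is the rate-limiting enzyme that rebuilds NAD from nicotinamide inside the cell. CD39 and CD38 are both used as surface markers of chronically stimulated CD8 T cells.

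Total counts were 16.59 to 24.66 M per library, and levels are given as CPM (counts scaled to library size) adjusted by TMM factors. CD8 T cell markers were abundant, with a summed level of 1663 to 2402 CPM over Cd3d, Cd3e, Cd3g, Trac, Cd8a and Cd8b1. Of these, Cd8a averaged 678 CPM in d9 acetate, 589 in d9, 560.3 in d5 acetate and 333 in d5, and was higher with acetate at d5 (log2 0.75, edgeR adjusted p = 0.0385) and at d9 against d5 without acetate (0.00105), in the comparisons where Entpd1 and Cd38 also rose. The other markers did not pass for acetate at d5, at log2 0.22 (Cd3d), 0.64 (Cd3g), 0.10 (Cd8b1), -0.53 (Cd3e) and -0.41 (Trac). At d9 against d5 without acetate Cd3d, Cd3g and Cd8b1 were also higher (edgeR adjusted p = 0.0273, 0.0273 and 0.0437). Cd3e (177 against 237 CPM) and Trac (323 against 320 CPM) did not pass there (0.164 and 0.961). A pair of d9 libraries, replicate 2 with acetate and replicate 1 without, lay away from the remaining d9 libraries along the second principal component. They had 13.3% and 13.5% of counts on ribosomal protein genes against 9.83 to 11.1%. Their scores on that component were -26.1 and -19.9, against 2.24 to 21.8 in the remaining d9 libraries. The d5 groups also separated along it, at -16.4 and -32.9 with acetate and 18.2 and 29.2 without. Acetate at d5 thus lies along an axis that also splits d9 libraries within each acetate state. The source of that axis was not tested. No label says that replicates came from separate cultures or mice, so p-values measure the spread between these samples, which may be technical. In such bulk RNA a change in the share of cells that express a gene cannot be told apart from a change in RNA per cell.

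The genes lie on 5 chromosomes, all on the plus strand of GRCm38: Cd38 at chr5:43868553-43912375, P2rx7 at chr5:122643911-122691432, Nt5e at chr9:88327197-88372092, Adora2a at chr10:75316877-75334784, Nampt at chr12:32819545-32853349 and Entpd1 at chr19:40612366-40741602. Bst1, a paralog of Cd38 that also cleaves NAD, lies 24566 bp below Cd38. P2rx4, another ATP-gated channel gene, follows P2rx7 after 16111 bp, and both neighbours are given beside the genes they adjoin. The microRNA gene Mir8115 lies within P2rx7 on the same strand, so its reads cannot be told apart. Counts are per whole gene and do not separate isoforms. Of the 50-base words in each gene's transcripts, none was shared with another gene for Entpd1, Adora2a and Nampt, 0.128% for Nt5e, 1.17% for P2rx7 and 1.2% for Cd38.

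The promoters of Cd38, Entpd1 and Nampt are shown because these were the genes higher with acetate when both days were averaged. Each is the RefSeq window of 250 bases before to 50 after the annotated start on GRCm38.p6, plus strand, with CpG dinucleotides in capitals. The windows are chr5:43868559-43868858 for Cd38, chr19:40612116-40612415 for the first listed start of Entpd1 and chr12:32820085-32820384 for Nampt.
Cd38: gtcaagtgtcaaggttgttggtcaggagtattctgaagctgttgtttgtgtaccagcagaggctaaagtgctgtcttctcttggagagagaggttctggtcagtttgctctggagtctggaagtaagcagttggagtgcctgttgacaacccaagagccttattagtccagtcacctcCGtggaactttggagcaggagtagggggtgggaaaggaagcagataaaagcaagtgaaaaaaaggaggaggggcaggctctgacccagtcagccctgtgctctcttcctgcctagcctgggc
Entpd1: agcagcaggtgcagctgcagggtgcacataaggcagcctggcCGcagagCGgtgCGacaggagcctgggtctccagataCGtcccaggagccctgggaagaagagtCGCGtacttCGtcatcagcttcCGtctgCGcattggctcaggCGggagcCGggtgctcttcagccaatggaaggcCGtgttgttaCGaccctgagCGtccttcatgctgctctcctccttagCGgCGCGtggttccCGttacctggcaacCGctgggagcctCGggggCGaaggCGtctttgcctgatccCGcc
Nampt: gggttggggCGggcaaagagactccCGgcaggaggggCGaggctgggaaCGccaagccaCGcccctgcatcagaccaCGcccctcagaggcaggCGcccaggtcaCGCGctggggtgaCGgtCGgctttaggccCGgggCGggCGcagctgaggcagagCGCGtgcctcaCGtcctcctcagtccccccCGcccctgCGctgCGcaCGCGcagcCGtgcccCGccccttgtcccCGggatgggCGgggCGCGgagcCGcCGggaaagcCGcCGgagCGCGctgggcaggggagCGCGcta
The promoters differed in base content. That of Cd38 held 1 CpG (observed over expected 0.0533), against 23 at the first listed start of Entpd1 (0.75) and 36 in Nampt (0.825), where the median of 32851 mouse promoters was 7 (0.384). A second listed start of Entpd1, with the window chr19:40659520-40659819, held 10 (0.565). Which start these cells use was not tested. Windows were searched on both strands for 6 motifs, the letters TGANTCA for AP-1, TGACGTCA for the cyclic AMP response element (CRE), CACGTG for the E-box, ACGTG for the hypoxia response element (HRE) and TATAAA for the TATA box, and for the interferon-stimulated response element (ISRE). The HRE letters lie inside those of the E-box. The only matches among the 5 genes with an entry were an AP-1 letter match 249 to 243 bases before the first P2rx7 start, present in 7.81% of all promoters, and ACGTG on the minus strand 82 to 78 bases before the Nampt start, present in 19.6%. The other motifs occur in 1.79% (CRE), 7.15% (E-box), 3.44% (ISRE) and 13.6% (TATA) of promoters. A match is a description of letters and not of binding.

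Of the 5 among these 6 genes that were tested, Entpd1, the gene of CD39, had the widest change, and its levels separated the d9 from the d5 libraries. Its level was 22.4, 24.9 and 25.0 CPM in d9 acetate libraries, 21.4, 20.1 and 17.6 CPM in d9 libraries without acetate, 3.76 and 5.42 CPM in d5 acetate libraries, and 2.15 and 2.16 CPM in d5 libraries without acetate. Every d9 library exceeded every d5 library, and within each day every acetate library exceeded every library without acetate. Without acetate Entpd1 rose 9.13-fold at d9 against d5 (log2 3.19 ± 0.20, SE; edgeR quasi-likelihood test, Benjamini-Hochberg adjusted p = 3.65e-06), the gene of rank 31 by p among 13182 tested. With acetate it rose 5.24-fold at d9 against d5 (log2 2.39 ± 0.18, adjusted p = 1.12e-05), in a comparison that shares no library with the first. Both calls held in each of 19 alternative settings. With acetate against none at d5, Entpd1 rose 2.13-fold (log2 1.09 ± 0.22, adjusted p = 0.0411), and at d9 its log2 fold change was 0.29 ± 0.14 (adjusted p = 0.366).

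Nt5e, the gene of CD73, which makes adenosine from AMP, took a different course. It stood at 21.3, 15.6 and 18.5 CPM in d9 acetate libraries, 17.4, 16.1 and 21.5 CPM in d9 libraries without acetate, 9.58 and 7.73 CPM in d5 acetate libraries, and 16.0 and 15.9 CPM in d5 libraries without acetate. The low group was d5 with acetate, whose libraries lay under all 8 others. With acetate, Nt5e rose 2.14-fold at d9 against d5 (log2 1.10 ± 0.19, adjusted p = 0.0012), a call kept in each of 19 alternative settings. Without acetate the same contrast gave log2 0.20 ± 0.18 (adjusted p = 0.404). At d5 acetate against none gave log2 -0.88 ± 0.20 (95% interval -1.33 to -0.43), which missed the threshold at an adjusted p of 0.0622. That value passed under 6 of 19 settings, among them the DESeq2 Wald test (adjusted p = 0.00533) and fits without d9 replicate 1 (0.0442) or d9 acetate replicate 2 (0.0415), whose log2 fold changes were -0.86, -0.88 and -0.88. At d9 acetate against none gave log2 0.01 ± 0.16 (interval -0.34 to 0.36, adjusted p = 0.987), with overlapping libraries.

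The ratio of Entpd1 to Nt5e, each per kb of exon, sets the first enzyme of the chain beside the second. It was 1.62, 2.47 and 2.08 in d9 acetate libraries, 1.90, 1.93 and 1.26 in d9 libraries without acetate, 0.604 and 1.08 in d5 acetate libraries, and 0.207 and 0.21 in d5 libraries without acetate. The d5 groups did not overlap, nor did the d9 and d5 libraries, while the d9 groups overlapped. With the longest transcript as the length in place of all exons, the ratio averaged 1.26 ± 0.26 (SD) in d9 acetate, 1.04 ± 0.231 in d9, 0.517 ± 0.207 in d5 acetate and 0.128 ± 0.00104 in d5. This is a ratio of transcripts, and enzyme activity was not measured in these data.

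**Figure D1:**
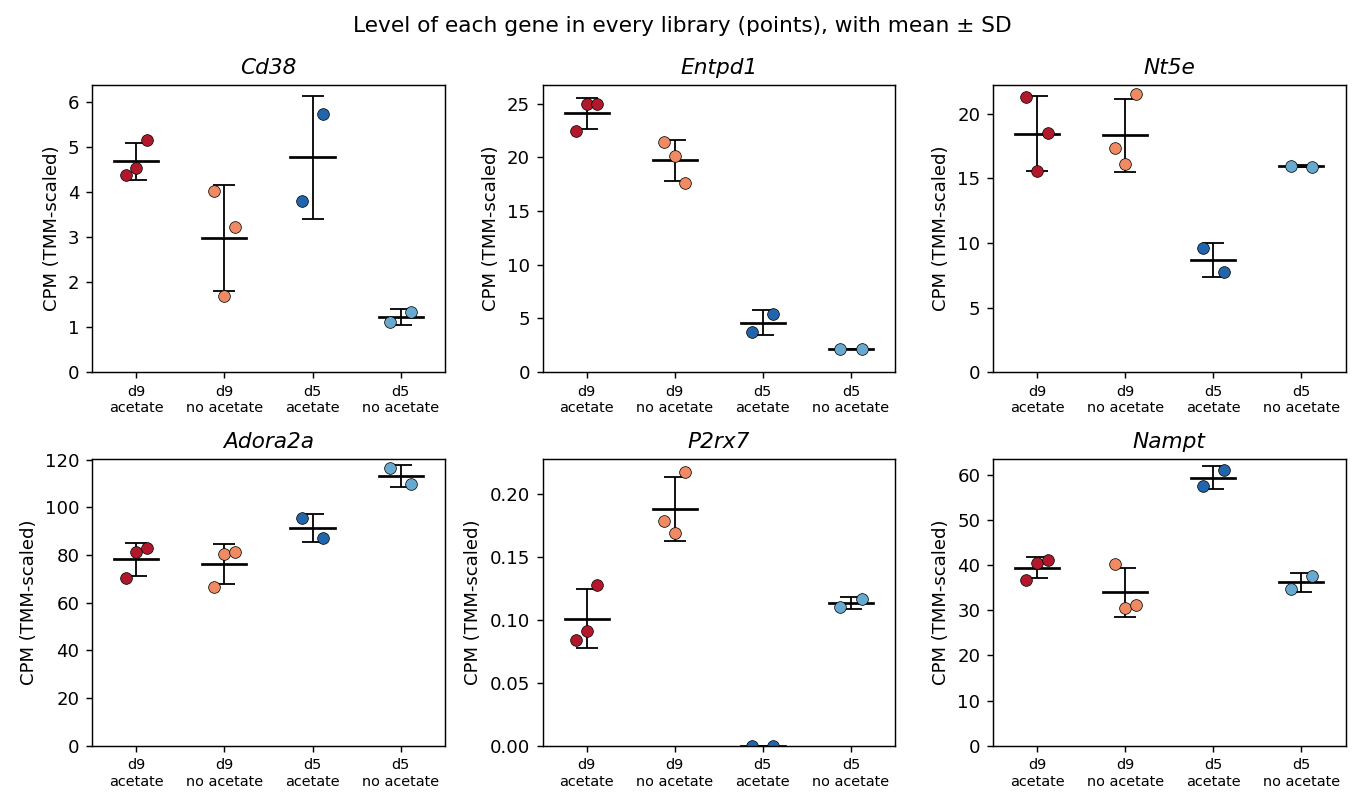
Level in CPM (y axis, TMM-scaled, from 0) of each gene in every library, with d9 acetate, d9 without acetate, d5 acetate and d5 without acetate from left to right; points are libraries, the long bar is the mean and the whiskers are ± 1 SD. Entpd1 separates d9 (17.6 to 25.0 CPM) from d5 (2.15 to 5.42 CPM), Nt5e is lowest in d5 with acetate and Nampt is highest there, and P2rx7 rests on 0 to 5 counts per library.

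Cd38, the gene of the NAD-consuming ectoenzyme, was low in the d5 cells without acetate and higher in the other 3 groups. It reached 4.38, 4.53 and 5.16 CPM in d9 acetate libraries, 4.03, 1.69 and 3.22 CPM in d9 libraries without acetate, 3.81 and 5.73 CPM in d5 acetate libraries, and 1.10 and 1.34 CPM in d5 libraries without acetate. These levels rest on 20 to 121 counts per library. The acetate libraries exceeded those without acetate at both days, and the d9 group without acetate spread more widely than d9 with acetate. With acetate against none at d5, Cd38 rose 3.90-fold (log2 1.96 ± 0.40, adjusted p = 0.0411), and at d9 its log2 fold change was 0.66 ± 0.28 (adjusted p = 0.3). Without acetate it rose 2.43-fold at d9 against d5 (log2 1.28 ± 0.38, adjusted p = 0.0217), and with acetate the contrast was log2 -0.03 ± 0.31 (interval -0.71 to 0.66, adjusted p = 0.953). The d9 against d5 call without acetate was lost when d5 replicate 1 (adjusted p = 0.14), d5 replicate 2 (0.0823), d9 replicate 1 (0.0508) or d9 replicate 3 (0.0529) was left out, with log2 fold changes of 1.02 to 1.43, and when both d9 libraries that stood apart were left out (log2 0.98, adjusted p = 0.0533). It was also lost in limma-voom (log2 1.18, adjusted p = 0.0555).

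Bst1, the neighbouring paralog, was scarcer but ordered in a similar way at d5. Its level was 1.31, 1.65 and 1.02 CPM in d9 acetate libraries, 0.896, 0.974 and 0.609 CPM in d9 libraries without acetate, 2.07 and 2.37 CPM in d5 acetate libraries, and 0.772 and 0.234 CPM in d5 libraries without acetate, from 4 to 45 counts. Acetate libraries were higher at both days. At d5 acetate against none gave log2 2.12 ± 0.46, which missed the threshold (adjusted p = 0.0511) but passed in 7 of 19 settings (0.00168 to 0.0486, log2 2.11 to 2.15). It was log2 3.21 (adjusted p = 0.097) without d5 replicate 1 and 1.51 (0.292) without d5 replicate 2. The average over both days passed the threshold (log2 1.39 ± 0.29, adjusted p = 0.0254). The averaged call was lost without d5 replicate 2, d5 acetate replicate 1 or 2, or d9 replicate 2 or 3 (adjusted p 0.0556 to 0.0984, log2 1.09 to 1.46). Exons of Bst1 overlap those of Fbxl5, which is read from the minus strand, and whether counting used strand is not stated, so the 2 genes may share some reads.

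Nampt, which feeds NAD synthesis, was highest in d5 with acetate. It stood at 36.7, 40.4 and 41.2 CPM in d9 acetate libraries, 40.2, 30.5 and 31.1 CPM in d9 libraries without acetate, 57.6 and 61.1 CPM in d5 acetate libraries, and 34.7 and 37.6 CPM in d5 libraries without acetate. The d5 acetate libraries lay above all 8 others, which overlapped among themselves. With acetate Nampt fell at d9 against d5 (log2 -0.59 ± 0.14, 0.664-fold, adjusted p = 0.00676), a call lost only without d5 acetate replicate 2 among 19 settings (log2 -0.54, adjusted p = 0.0548). Without acetate the contrast was log2 -0.09 ± 0.14 (adjusted p = 0.644). With acetate against none at d5 the gene was 1.64-fold higher (log2 0.71 ± 0.15) at an adjusted p of 0.0512, just outside the threshold, and 7 of 19 settings brought it inside, including fits without d9 replicate 1 (log2 0.71, adjusted p = 0.0225) or d9 acetate replicate 2 (0.71, 0.0459).

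Adora2a, the gene of the main Gs-coupled adenosine receptor of T cells, was lower in all d9 than in all d5 libraries. It stood at 70.3, 81.5 and 82.8 CPM in d9 acetate libraries, 66.6, 80.4 and 81.5 CPM in d9 libraries without acetate, 95.6 and 87.2 CPM in d5 acetate libraries, and 116.5 and 109.9 CPM in d5 libraries without acetate. The d9 groups overlapped each other, and the d5 groups did not. Without acetate it fell at d9 against d5 (log2 -0.57 ± 0.13, 0.673-fold, adjusted p = 0.0051), a call lost without d5 replicate 1 (log2 -0.53, adjusted p = 0.0515). With acetate the contrast was log2 -0.22 ± 0.13 (adjusted p = 0.174). Acetate against none gave log2 -0.31 ± 0.14 at d5 (interval -0.62 to -0.00, adjusted p = 0.251) and 0.04 ± 0.11 at d9 (interval -0.21 to 0.29, adjusted p = 0.913).

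P2rx7, the gene of the ATP-gated death channel, was at the limit of detection. It had 2, 2 and 3 counts in d9 acetate libraries, 4, 4 and 5 in d9 libraries without acetate, 0 and 0 in d5 acetate libraries, and 2 and 2 in d5 libraries without acetate. It did not pass the low-count filter and was not tested, so 5 of the 6 genes carry tests. In the d5 acetate libraries a count of 0 allows a level of up to 0.168 and 0.158 CPM (3 counts, counting error only), which is above the 0.11 and 0.117 CPM of the d5 libraries without acetate. Between the d5 groups a difference was not detectable at this depth. The d9 libraries without acetate, at 0.179, 0.169 and 0.218 CPM, lay above both limits, and no test was made. The neighbouring P2rx4 was better covered, at 2.11, 2.75 and 1.41 CPM in d9 acetate libraries, 4.57, 3.34 and 2.61 CPM in d9 libraries without acetate, 2.86 and 5.10 CPM in d5 acetate libraries, and 4.25 and 4.32 CPM in d5 libraries without acetate. With acetate P2rx4 fell at d9 against d5 (log2 -0.94 ± 0.34, adjusted p = 0.0464). That call was lost in 10 of 19 settings, with an adjusted p of 0.442 and a log2 fold change of -0.45 without d5 acetate replicate 2, and 0.0606 to 0.133 without d9 acetate replicate 1 or 3, d9 replicate 2 or d5 replicate 1 or 2.

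Per kb of exon, Adora2a had the highest level of the 6 genes in every library and Nampt the next, while the order below them changed with time. In d9 acetate libraries the mean levels were 25.5 CPM per kb for Adora2a, 7.80 for Nampt, 4.32 for Entpd1, 2.15 for Nt5e and 1.21 for Cd38. In d9 libraries without acetate they were 24.9 for Adora2a, 6.71 for Nampt, 3.54 for Entpd1, 2.13 for Nt5e and 0.766 for Cd38. In both d9 groups these neighbours in the order had ranges that did not overlap. In d5 acetate libraries the means were 29.9 CPM per kb for Adora2a, 11.7 for Nampt, 1.23 for Cd38, 1.01 for Nt5e and 0.822 for Entpd1, and among the last 3 each overlapped its neighbour. In d5 libraries without acetate they were 37.0 for Adora2a, 7.15 for Nampt, 1.85 for Nt5e, 0.386 for Entpd1 and 0.315 for Cd38, with no overlap. P2rx7 came last everywhere, at 0.0364 CPM per kb or less. With the longest transcript as the length, Cd38 and Nt5e changed places in d5 acetate and no other place in the order changed, though the ranges of Entpd1 and Nt5e then overlapped in both d9 groups.

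**Figure D2:**
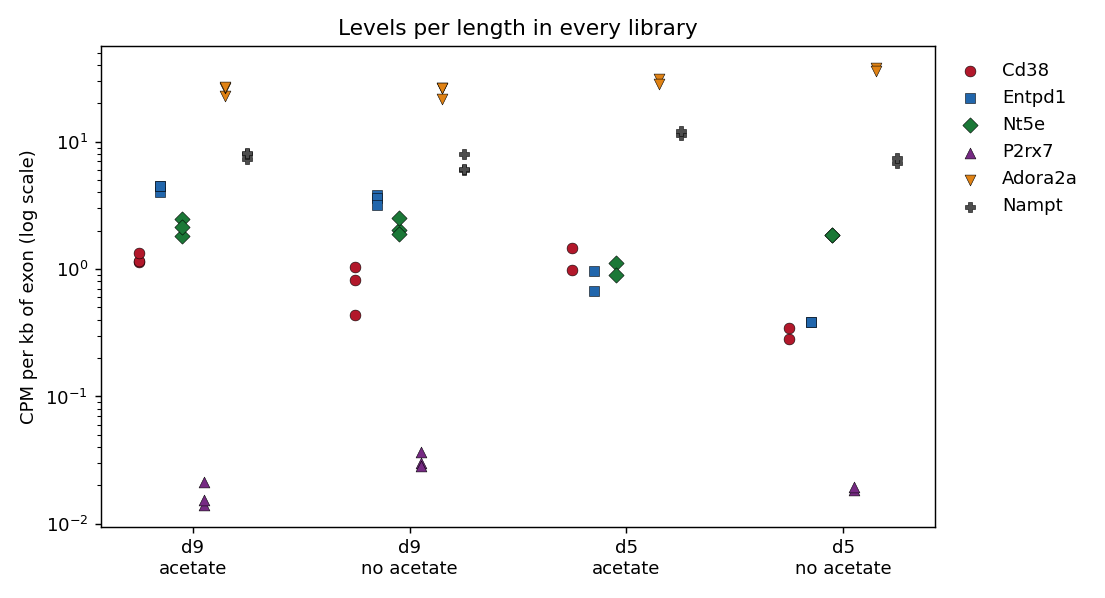
Level per length (CPM per kb of exon, log scale, y axis) of the 6 genes in every library by group, from d9 acetate at the left to d5 without acetate at the right; each symbol is 1 library, and P2rx7 in d5 acetate is at 0 and not drawn. Adora2a and Nampt lead in each group, and Entpd1 passes Nt5e at d9 but lies under it in d5 without acetate (0.386 against 1.85 CPM per kb).

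With acetate against none at d5, 2 of the 5 tested genes passed the threshold, Cd38 and Entpd1, both higher. Of all 13182 genes tested, 1.52% passed in this comparison, 0.66% higher and 0.865% lower. The median log2 fold change was 0.71 over the 5 genes and 0.01 over all genes, and the libraries of the groups did not overlap for any of the 5, as for 59% of all genes. Both calls were at the edge of the threshold. Cd38 lost it without d5 replicate 1 or 2, d5 acetate replicate 1 or 2, d9 replicate 3 or d9 acetate replicate 1 or 3, with adjusted p from 0.0577 to 0.252 and log2 fold changes of 1.63 to 2.22. Entpd1 lost it without any of these or without d9 replicate 2 (adjusted p 0.0541 to 0.278, log2 0.80 to 1.32), and both lost it in limma-voom (adjusted p 0.0676 for Cd38 and 0.0858 for Entpd1). The sign held throughout. Under other settings 4 of the 5 genes passed, with Nt5e and Nampt added, in the DESeq2 Wald test, without a low-count filter, with only the 4 d5 libraries fitted, and without the d9 libraries that stood apart.

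At d9, 0 of the 5 genes passed for acetate against none in the edgeR quasi-likelihood test, where 0.0303% of all genes did (4 of 13182). The DESeq2 Wald test and limma-voom also gave 0, and 1 gene, Cd38, had an unadjusted p below 0.05, as did 15.4% of all genes. The median log2 fold change was 0.22 over the 5 genes and 0.01 over all genes. Libraries of the groups did not overlap for Cd38 and Entpd1, as for 18.7% of all genes.

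Averaged over both days, 3 of the 5 genes were higher with acetate, against 5.89% of all genes past the threshold in either direction, 3.35% higher and 2.54% lower. Cd38 rose by log2 1.31 ± 0.24 (adjusted p = 0.0181), Entpd1 by 0.69 ± 0.13 (0.0199) and Nampt by 0.47 ± 0.10 (0.0283). Nt5e at -0.44 ± 0.13 (0.0728) and Adora2a at -0.14 ± 0.09 (0.374) did not pass. The average is built from the libraries of both single-day comparisons and adds no samples to them. None of the 3 passed without d5 replicate 1, d5 replicate 2 or d5 acetate replicate 2, where adjusted p was 0.0817 to 0.0991 for Cd38, 0.0928 to 0.0989 for Entpd1 and 0.104 to 0.125 for Nampt, with log2 fold changes of 1.15 to 1.38, 0.54 to 0.69 and 0.44 to 0.49. Entpd1 was also lost without d9 replicate 2 (0.0542) or 3 (0.0548), and Nampt without either of these, d5 acetate replicate 1 or d9 acetate replicate 3 (0.0549 to 0.0796).

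The difference between the acetate effects at d9 and d5 was tested directly. In edgeR 0 of the 5 genes passed, as did 0% of all genes, and the DESeq2 Wald test and limma-voom also called none of the 5. At an unadjusted p below 0.05 there were 4 of the 5: Nt5e at log2 0.89 ± 0.26 (unadjusted p = 0.00554, adjusted p = 0.401), Entpd1 at -0.80 ± 0.26 (0.0113, 0.487), Cd38 at -1.31 ± 0.49 (0.0218, 0.542) and Nampt at -0.50 ± 0.20 (0.0301, 0.601). Of all genes 7.7% had an unadjusted p below 0.05. The acetate effects at the 2 days are therefore not shown to differ for any of these genes.

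Between d9 and d5 the transcriptome moved broadly, and the counts of these genes are read against that background. Without acetate 3 of the 5 passed, Entpd1 and Cd38 higher and Adora2a lower, where 37.1% of all genes passed, 15.9% higher and 21.2% lower. With acetate 3 of the 5 passed, Entpd1 and Nt5e higher and Nampt lower, where 41.6% of all genes passed, 18.5% higher and 23.1% lower. Scaling by library size alone shifted the median of all genes to log2 -0.11 in both comparisons, from -0.01, and called 32.3% of the passing genes higher without acetate and 33.9% with it, in place of 42.8% and 44.5%. The calls and directions of the 5 genes were the same under that scaling. Of the 5 genes only Entpd1 passed at both acetate states. The d9 and d5 libraries did not overlap for 4 of the 5 without acetate (all but Nampt), as for 63.1% of all genes, and for 4 of the 5 with acetate (all but Cd38), as for 62.5%.

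**Figure D3:**
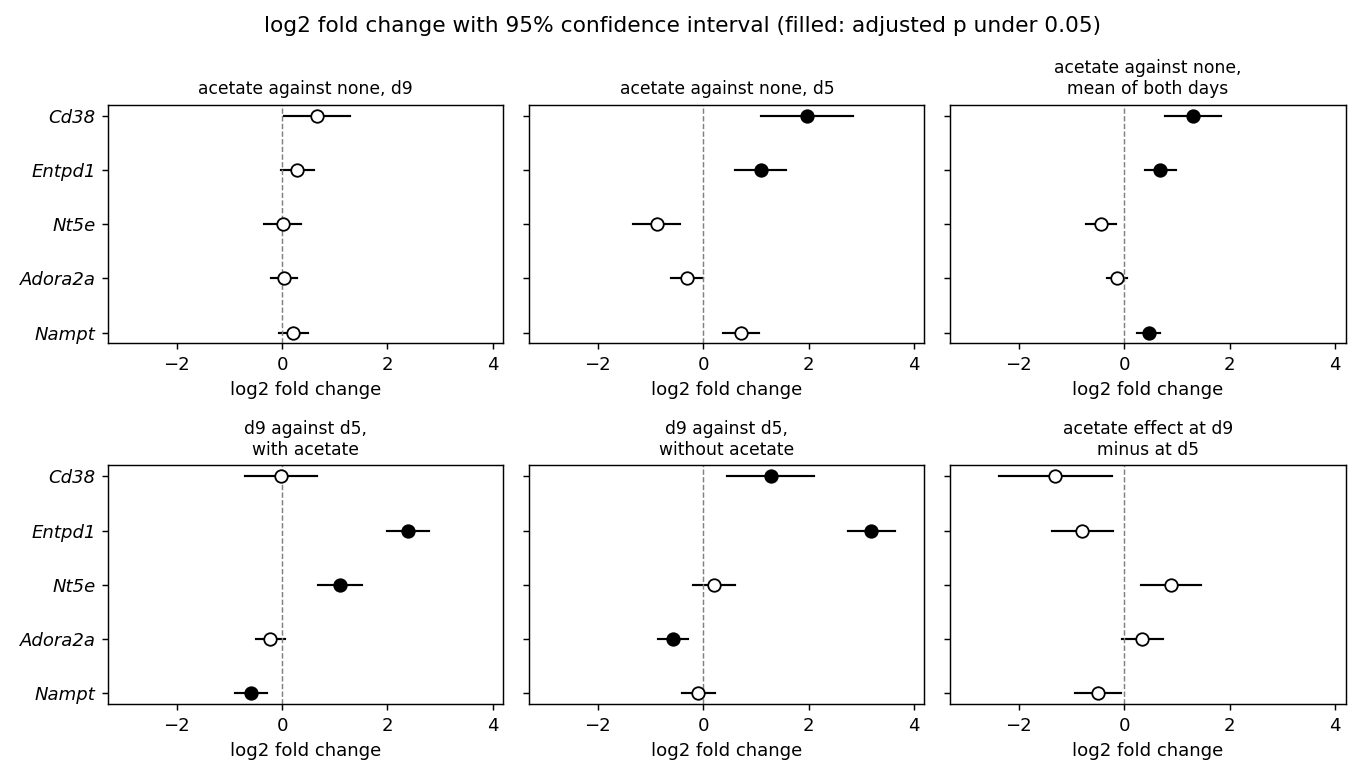
Fitted log2 fold change (x axis) with its 95% confidence interval for the 5 tested genes in 6 comparisons, one panel each; filled points passed an adjusted p of 0.05 over all 13182 genes. The d9 against d5 panels hold the widest shifts (Entpd1 at 3.19 without acetate), and the panel of the difference between acetate effects has only open points.

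The other extracellular nucleotide hydrolases were few. Of 10 listed genes 4 passed the low-count filter, Entpd1, Nt5e, Enpp1, whose product splits ATP to AMP, and Acpp, an acid phosphatase that can also form adenosine. Entpd2 had at most 7 counts and Entpd3 at most 1 in any library. At d9 against d5, 3 of the 4 rose and 0 fell without acetate (median log2 1.86, against -0.01 over all genes, of which 15.9% rose and 21.2% fell), and 3 rose and 1 fell with acetate (median 1.71, against -0.01, with 18.5% and 23.1%). Acpp had 10.2, 7.79 and 8.31 CPM in d9 acetate, 6.45, 7.66 and 9.35 CPM in d9 without acetate, 1.57 and 1.89 CPM in d5 acetate and 0.828 and 1.46 CPM in d5 without acetate. It rose at d9 both with acetate (log2 2.33 ± 0.27, adjusted p = 0.000113) and without (2.77 ± 0.29, 5.88e-05). Acpp, like Entpd1, had no d9 library overlapping a d5 library.

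Enpp1 had 7.29, 7.65 and 5.97 CPM in d9 acetate libraries, 8.51, 8.13 and 9.18 CPM in d9 libraries without acetate, 8.74 and 11.0 CPM in d5 acetate libraries, and 3.92 and 4.97 CPM in d5 libraries without acetate. Acetate libraries were the higher ones at d5 and the lower ones at d9. At d5 it rose with acetate (log2 1.15 ± 0.21, adjusted p = 0.0303), and at d9 the log2 fold change was -0.30 ± 0.16 (adjusted p = 0.402). The difference of the effects was log2 -1.46 ± 0.26 at an unadjusted p of 0.000185 and did not pass adjustment (0.134). The d5 call was lost without any one of the 4 d5 libraries or without d9 replicate 2 or 3 (adjusted p 0.0568 to 0.215, log2 0.98 to 1.33). Without acetate Enpp1 rose at d9 against d5 (log2 0.95 ± 0.19, adjusted p = 0.00318). With acetate it fell at d9 against d5 (log2 -0.50 ± 0.18, adjusted p = 0.0434), a call lost in 14 of 19 settings, 10 of them leaving out any one library (adjusted p 0.0515 to 0.324, log2 -0.65 to -0.32).

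Among the other ATP and ADP receptors, P2ry13, a Gi-coupled ADP receptor gene, was the one of the P2Y list past the threshold for acetate against none. It had 3.96, 4.35 and 3.97 CPM in d9 acetate, 2.37, 2.58 and 1.91 CPM in d9 without acetate, 1.23 and 1.10 CPM in d5 acetate, and 0.11 and 0.292 CPM in d5 without acetate, from 2 to 95 counts. The 4 groups did not overlap and were ordered as Entpd1 was. At d5 it rose with acetate (log2 2.52 ± 0.43, adjusted p = 0.0231), the d9 value was 0.84 ± 0.21 (adjusted p = 0.13), and the averaged effect passed (1.68 ± 0.24, 0.00882). The d5 call was lost without any one d5 library (adjusted p 0.106 to 0.172, log2 1.98 to 3.33) and the averaged one without d5 replicate 1 (log2 1.41, adjusted p = 0.0526). Of 7 listed P2Y genes 5 were tested, and at d9 against d5 P2ry13, P2ry14, a UDP-sugar receptor gene, and P2ry2, an ATP and UTP receptor gene, rose at both acetate states, with no fall (median log2 1.98 without and 1.24 with acetate), where 15.9% and 18.5% of all genes rose. P2ry14 rose by log2 1.30 ± 0.25 with acetate (adjusted p = 0.00224) and 1.99 ± 0.27 without (0.000288). P2ry2 rose by log2 1.19 ± 0.40 with acetate (0.0344) and 1.98 ± 0.45 without (0.00617). Its call with acetate was lost under scaling by library size alone (0.0515) and without d5 acetate replicate 1 (0.215) or 2 (0.0549) or d9 acetate replicate 1 (0.0599) or 3 (0.0882), and the other without d5 replicate 1 (0.0751). Of 7 listed P2X genes 4 were tested, and P2rx4 was the only call in any comparison.

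Adora2a was the only adenosine receptor gene past the threshold to fall, at d9 against d5 without acetate. For acetate at d5 none of the 3 tested passed, and their median log2 fold change was -0.65. Of 4 listed, Adora1 had 0 counts in every library, and Adora2b and Adora3 rose at d9 at both acetate states. Adora2b, a second Gs-coupled receptor of lower affinity for adenosine, had 23.0, 22.4 and 17.8 CPM in d9 acetate, 26.9, 22.4 and 24.0 CPM in d9 without acetate, 10.4 and 9.68 CPM in d5 acetate, and 17.7 and 13.8 CPM in d5 without acetate. It rose at d9 by log2 1.07 ± 0.17 with acetate (adjusted p = 0.000798) and 0.63 ± 0.17 without (0.0131, lost without d5 replicate 2 at log2 0.47 and adjusted p = 0.136). Adora3, a Gi-coupled receptor, had 2.26 to 4.31 CPM in the 6 d9 libraries and 0.158 to 0.526 CPM in the 4 d5 libraries, and rose by log2 3.74 ± 0.36 with acetate (3.83e-05) and 2.34 ± 0.33 without (0.000442). With 3 to 9 counts per d5 library and 51 to 101 per d9 library, Adora3 passed the low-count filter through d9, where it is high. Per kb of exon Adora2a exceeded Adora2b by 1.84, 2.20 and 2.81 times in d9 acetate libraries, 1.49, 2.16 and 2.05 times in d9 libraries without acetate, 5.53 and 5.43 times in d5 acetate libraries, and 3.96 and 4.78 times in d5 libraries without acetate. All d9 ratios were below all d5 ratios.

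Of 12 genes for adenosine transport and conversion 11 were tested, and none passed for acetate at either day or averaged. Without acetate 3 rose and 2 fell at d9 against d5, and with acetate 2 rose and 3 fell (median log2 -0.32 and -0.36, against -0.01 over all genes in both). Of all genes 37.1% and 41.6% passed in these comparisons, so 5 of 11 is near that background. Slc29a1, the main equilibrative nucleoside transporter gene, fell without acetate (log2 -0.48 ± 0.13, adjusted p = 0.0119; without d5 replicate 1 log2 -0.41, adjusted p = 0.105), while Slc29a2, a second equilibrative transporter gene, rose with acetate (1.23 ± 0.21, 0.00101) and without (1.27 ± 0.21, 0.00106). Adk, whose kinase turns adenosine back into AMP, fell at d9 with acetate (log2 -1.51 ± 0.19, adjusted p = 0.000213) and without (-0.96 ± 0.20, 0.00334). Its level was 11.8 to 16.5 CPM in d9 acetate and 11.4 to 16.1 CPM in d9 without acetate, against 33.9 and 43.9 CPM in d5 acetate and 24.7 and 26.8 CPM in d5 without acetate. Dpp4, the gene of CD26, fell at d9 with acetate (log2 -1.23 ± 0.21, adjusted p = 0.00113) and was at -0.49 ± 0.21 without (0.0944). Of 6 genes for ATP release 3 were tested, and Slc17a9, the vesicular nucleotide transporter gene, rose at d9 with acetate (log2 0.59 ± 0.15, 0.00825) and without (0.47 ± 0.15, 0.0272; lost under scaling by library size alone at 0.0866, and without d5 replicate 1 or 2 or d9 replicate 2 or 3 at 0.0658 to 0.188). The call with acetate was lost without d5 acetate replicate 1 (0.101).

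Among the other genes of NAD handling, few passed for acetate. Of 8 extracellular NAD consumers 4 were tested, and Cd38 at d5 and Cd38 and Bst1 in the average were the calls for acetate. Art2b, an ADP-ribosyltransferase gene whose product can gate P2X7 in mouse T cells, rose at d9 with acetate (log2 2.13 ± 0.73, adjusted p = 0.0385) and without (2.18 ± 0.58, 0.0129). Its levels were low, at 0.211 to 0.512 CPM in d9 acetate and 0.761 to 0.847 CPM in d9 without acetate, against 0.112 and 0.0526 CPM in d5 acetate and 0.0552 and 0.292 CPM in d5 without acetate. With 1 to 5 counts per d5 library and 5 to 20 per d9 library, Art2b passed the low-count filter through d9, where it is higher. The call with acetate was lost in 10 of 19 settings (adjusted p 0.0524 to 0.21) and the one without in 1, without d5 replicate 1 (log2 1.43, adjusted p = 0.127). Of 13 NAD synthesis genes 11 were tested. Nampt in the average was the only one past the threshold with acetate, and at d9 against d5 2 rose and 2 fell without acetate, where 37.1% of all genes passed, and 2 rose and 4 fell with it, where 41.6% passed. Nmnat3 and Haao rose and Nmrk1, which starts NAD synthesis from nicotinamide riboside, fell at both acetate states. The call of Nmnat3 with acetate was lost in 10 of 19 settings (adjusted p 0.0507 to 0.161) and the one without when d5 replicate 1 was left out (0.0766), and those of Haao were lost without d5 acetate replicate 1 (0.0836) and d5 replicate 2 (0.0626). Nmrk1 changed by log2 -0.72 ± 0.18 with acetate (adjusted p = 0.00993) and -0.68 ± 0.19 without (0.0154), in the same direction as Nampt with acetate. Those calls were lost without d5 acetate replicate 1 (0.0599) or 2 (0.0509), and without d5 replicate 1 (0.102) or 2 (0.06) or d9 replicate 2 (0.0561).

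**Figure D4:**
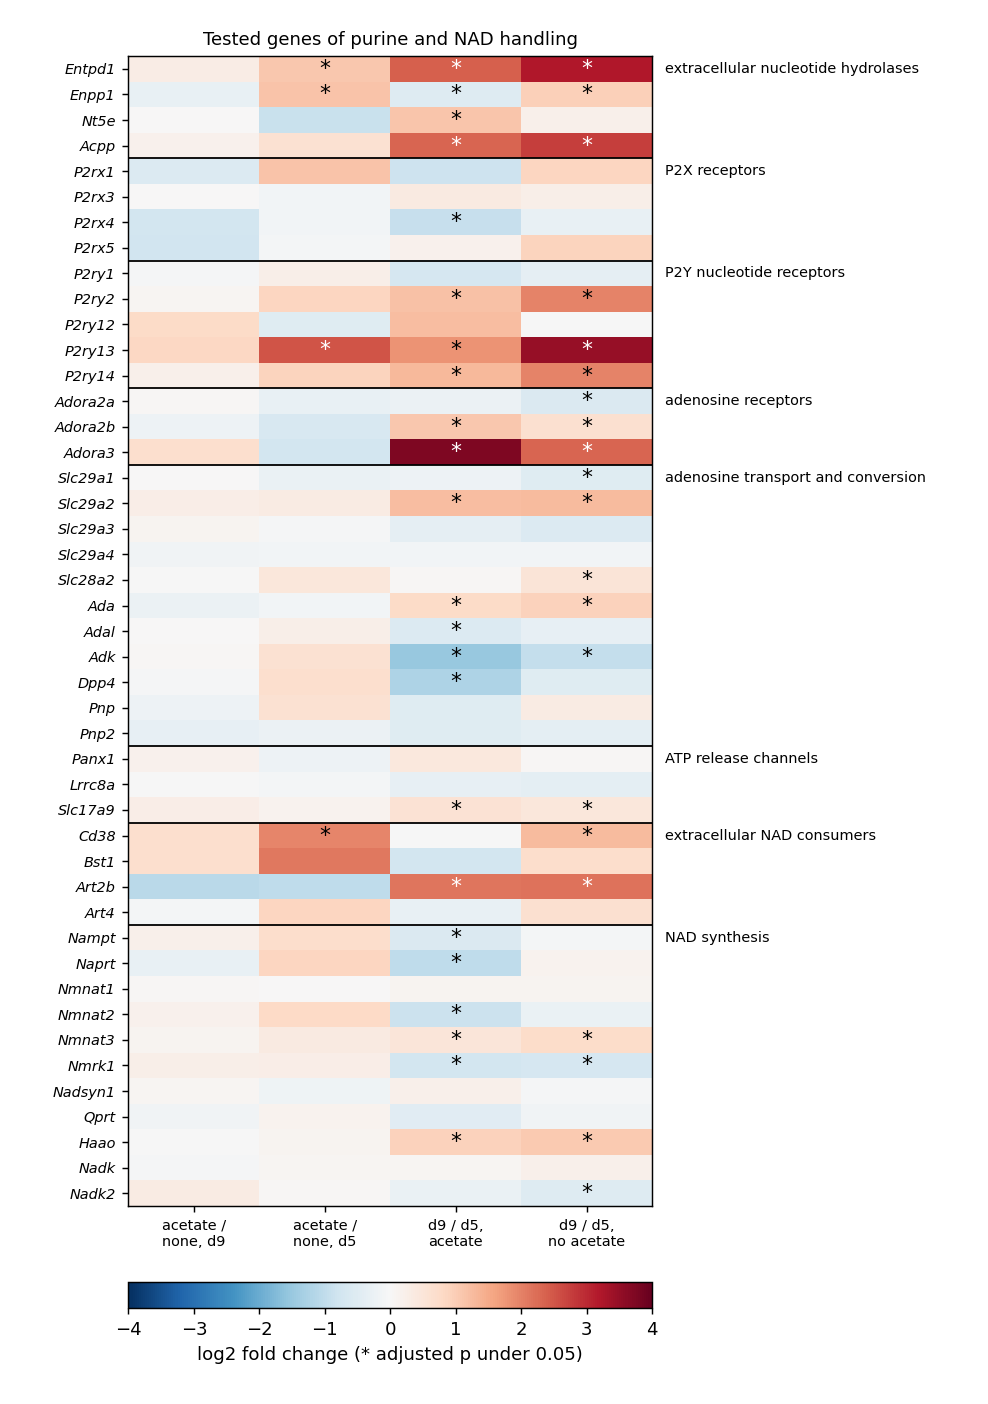
Fitted log2 fold change (colour, red higher and blue lower) of the 45 tested genes of 8 lists in 4 comparisons, acetate against none at d9 and d5, then d9 against d5 with and without acetate; stars mark an adjusted p under 0.05, and P2rx7 is absent because it was not tested. Stars number 0 for acetate at d9, 4 for acetate at d5 (Entpd1, Enpp1, P2ry13 and Cd38), 23 for d9 against d5 with acetate and 21 without, where 0.0303%, 1.52%, 41.6% and 37.1% of all genes tested passed.

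The genes most like each member over the 10 libraries were found by the root mean square difference of log2 CPM centred on each gene's mean, among 9791 protein-coding genes. Entpd1 was nearest to Emilin2 (0.12), Styk1 (0.222) and Adgrg3 (0.23), against its own spread of 1.40. Emilin2 averaged 101 ± 18.8 CPM in d9 acetate, 74.6 ± 8.17 in d9, 17.6 ± 4.58 in d5 acetate and 9.31 ± 0.296 in d5, the same order as Entpd1. Adora2a was nearest to the nucleoside transporter gene Slc29a1 (0.0645), then Rabggta (0.0786) and Depdc5 (0.0852), against its own spread of 0.242. Slc29a1 averaged 260 ± 11.8 CPM in d9 acetate, 257 ± 28.4 in d9, 297 ± 35.1 in d5 acetate and 359 ± 23.6 in d5. Nampt was nearest to Utp14a (0.0666), Cox17 (0.091) and Paics (0.0925), against 0.316; Paics encodes an enzyme of purine synthesis. Nt5e was nearest to Rasgrf2 (0.13), Bloc1s3 (0.152) and 4930402H24Rik (0.158), against 0.446. Cd38 had no close match, with Ccrl2 (0.369), Gimap7 (0.379) and Cd244a (0.394) against 0.777. These genes were the closest of many and the 10 libraries share the same 4 groups, so likeness is a description only.

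Several of these genes are also expressed by other cell types, so the markers of those cells were read beside them. Among B cell markers, Ighm averaged 106 CPM in d9 acetate, 88.5 CPM in d9, 199.6 CPM in d5 acetate and 155 CPM in d5, while Ms4a1, Cd79a and Pax5 stayed at 0 to 0.421 CPM. Cd79b rose with acetate at d5, as Cd38 did (log2 1.64, adjusted p = 0.0499). The 6 monocyte and macrophage markers summed to 6.14 to 6.74 CPM in d9 acetate, 8.09 to 10.4 in d9, 4.68 to 6.56 in d5 acetate and 9.43 to 12.4 in d5, mostly Cd68, which fell with acetate at d5 (log2 -1.20, adjusted p = 0.0228), and Lyz2 reached at most 0.897 CPM. The 4 regulatory T cell markers summed to 917 to 1303 CPM in d9 acetate, 890.5 to 1113 in d9, 988 to 1063 in d5 acetate and 1243 to 1410 in d5, nearly all of it Il2ra and Ctla4, which activated CD8 T cells also express, and neither passed for acetate at d5 or for d9 against d5 without acetate. Foxp3, which defines regulatory T cells, stayed at or under 0.112 CPM. Ikzf2 fell at d9 against d5 without acetate, at 0.39 against 0.998 CPM (edgeR adjusted p = 0.0118). The 4 NK cell markers summed to 113 to 137 CPM in d9 acetate, 93.5 to 127 in d9, 162 to 177 in d5 acetate and 146 to 152 in d5, mostly Klrk1, and the defining Ncr1 stayed at or under 0.263 CPM. Klrb1c averaged 20.9 CPM in d9 acetate, 10.9 in d9, 5.47 in d5 acetate and 1.5 in d5, with group means ordered as those of Entpd1, and rose with acetate at d5 (log2 1.86, adjusted p = 0.0224) and at d9 against d5 without acetate (4.53e-05), where Fcer1g also rose (0.000226). Klrk1 went the other way in that comparison, at 72.6 CPM in d9 against 142 in d5 (adjusted p = 0.000365). It did not pass for acetate at d5 (log2 0.16, adjusted p = 0.582). The 3 CD4 T cell markers summed to 117 to 169 CPM over all libraries, mostly Zbtb7b, with Cd4 at 0.234 to 1.70 CPM, and the 3 gamma-delta T cell markers to 25.6 to 56.2 CPM, mostly Trdc. The 5 dendritic cell markers summed to 71.1 to 99.6 CPM in d9 acetate, 67.8 to 71.8 in d9, 31.6 to 32.3 in d5 acetate and 19.4 to 25.6 in d5, mostly Zbtb46, with group means in the same order as those of Entpd1, while Clec9a had 0 counts. The 5 endothelial and stromal markers, mostly Pecam1, summed to 46.5 to 53.3 CPM in d9 acetate, 29.5 to 36.8 in d9, 19.7 to 32.1 in d5 acetate and 14.2 to 19.3 in d5, with Cdh5 at 1 count in all. The part of such cells in the changes of Entpd1, Cd38 and Bst1 was not tested.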

How the data were processed

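Per the labels, stranded polyA libraries of 10 samples in 4 groups were sequenced on an Illumina HiSeq. The authors deposited a table of raw gene counts for each sample, and the submitters' processing notes name STAR, featureCounts, deepTools and DESeq2 with GRCm38. No source used here gives their roles, versions or strand setting, or the annotation release. The labelled days 5 and 9 exceed activation plus restriction (3 plus 1 or 5 days), which the labels do not explain.

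Identifiers were matched to GENCODE M21 (53360 of 53465 genes). With R 4.3.3 and edgeR 4.0.16, counts were scaled by TMM, filtered with filterByExpr by group (13182 genes kept) and fitted with robust quasi-likelihood over 4 group means (6 residual degrees of freedom, no covariates). Then 6 comparisons were tested with Benjamini-Hochberg adjustment over all genes at 0.05. SE was taken as |log2 fold change| / √F. Depth was 16.59 to 24.66 M counts, with replicates differing by more than sampling noise (chi-square 5.6 to 70.3 per degree of freedom). A count of 0 was given a floor of 3 counts. Alternatives were DESeq2 1.42.0 (size factors, Wald test), limma 3.58.1 voom, library size scaling, other filters, a replicate block, only the libraries compared, and leaving out libraries. Scripts were tested on simulated data.

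Whether replicate numbers pair samples was not settled, and the main fit did not pair them. The members, Bst1 and P2rx4 were named, with, per list, up to 4 genes past the threshold by smallest adjusted p. Parp1 and Parp2 met that rule and are not described. Other genes named were chosen after their values were seen. Likeness used genes of mean log2 CPM of at least 1. The members and lists were chosen with earlier results of these data known. Promoters are from RefSeq (GRCm38.p6), matched for 5 of 6 members. One listed B cell marker is not reported here.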

Additional observations from a re-analysis of the deposited data

How the results depend on the processing

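For acetate at d5, 2 of the 5 tested genes passed as reported. The count was 4 without a low-count filter, 4 in the DESeq2 Wald test, 4 with only the libraries compared, 4 without both d9 libraries that stood apart, 0 in limma-voom, and 0 to 4 when 1 library was left out. Leaving out 1 library gave 0 to 3 for acetate averaged over both days (3 reported), 1 to 3 for d9 against d5 without acetate (3), 2 to 3 with acetate (3), and 0 for acetate at d9 and for the difference of the effects. Fits without a d5 library leave 1 library in its group, whose spread is then taken from the remaining groups. Replicate numbers were shared across groups, and whether they pair samples was not settled. Deviations of same-numbered libraries from their group means had correlations of 0.0293 at d5 and -0.139, -0.392 and 0.329 at d9. The highest value at d9, 0.509, was between d9 replicate 1 and d9 acetate replicate 2, the libraries that stood apart. With 2 libraries per group at d5, the values there can only be 0.0293 or -0.0293 and say little about pairing. With the replicate block the counts were 0 for acetate at d5, where 62 genes passed in all against 201, 2 for the average, where Nampt had an adjusted p of 0.0563, and 2 for d9 against d5 without acetate, where Cd38 had 0.0591. The block also ended the d5 acetate calls of P2ry13 (0.0564) and Enpp1 (0.0626).

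Values that turned sign were all near 0 and not past the threshold. P2rx4 for acetate at d5 was log2 0.25 without d5 acetate replicate 1 (-0.10 reported, -0.59 to 0.25 when 1 library was left out). Nt5e for acetate at d9 was -0.02, -0.07 and -0.10 without d9 replicate 1, d9 replicate 2 and d9 acetate replicate 1 (0.01, -0.10 to 0.14). Adora2a for acetate at d9 was -0.042 without d9 replicate 1, -0.0044 without d9 acetate replicate 3 and -0.062 without both libraries that stood apart (0.04, -0.042 to 0.11). Cd38 for d9 against d5 with acetate was 0.015 without a filter, 0.31 without d5 acetate replicate 2, and 0.02 and 0.03 without d9 acetate replicates 1 and 2 (-0.03, -0.28 to 0.31). The cause was not tested. Depth limits P2rx7, with at most 5 counts per library.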

Other observations

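Some genes of purine and NAD handling inside the cell moved between d9 and d5, and none of these lists had a call for acetate at either day. Between d9 and d5 41.6% of all genes passed with acetate and 37.1% without, and the counts over these lists are read against those shares. Of 5 endomembrane NTPDase genes 3 were tested. Entpd5 rose at d9 against d5 without acetate (log2 0.79 ± 0.13, edgeR adjusted p = 0.000879) and was at -0.10 ± 0.12 with acetate (0.527). Entpd7 rose at d9 against d5 with acetate (log2 0.61 ± 0.22, 0.0438) and was at 0.31 ± 0.21 without (0.272). Its call was lost in limma-voom (0.0601) and under scaling by library size alone (0.0905), among other settings. Entpd6 had 43.4 to 48.3 CPM in d9 acetate and 41.9 to 47.0 in d9, against 27.2 and 28.4 in d5 acetate and 27.1 and 31.9 in d5, and rose at d9 with acetate (log2 0.73 ± 0.12, edgeR adjusted p = 0.00106) and without (0.61 ± 0.12, 0.00319; lost without d5 replicate 1 at 0.0519). Of 12 intracellular NAD consumer genes, all tested, 1 rose and 3 fell at d9 against d5 with acetate, and 1 rose and 4 fell without, shares near that background. Sirt2, a cytosolic deacetylase gene, rose at d9 with acetate (log2 0.68 ± 0.11, adjusted p = 0.000896) and Sirt1, a nuclear deacetylase gene, fell (-1.17 ± 0.21, 0.00155).

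Of 16 genes for cyclic AMP signalling, which acts downstream of the receptor encoded by Adora2a, 15 were tested. Between d9 and d5 2 rose and 3 fell at each acetate state, a share near the 41.6% with acetate and 37.1% without of all genes. Creb1, a cyclic AMP-responsive transcription factor gene, had 20.2 to 26.9 CPM in d9 acetate and 17.7 to 23.5 in d9, against 56.2 and 79.8 in d5 acetate and 43.1 and 46.6 in d5, and fell at d9 with acetate (log2 -1.59 ± 0.19, adjusted p = 0.000137) and without (-1.08 ± 0.19, 0.00149). The adenylate cyclase gene Adcy3 rose at d9 without acetate (log2 1.19 ± 0.19, adjusted p = 0.000821), and the phosphodiesterase gene Pde4d rose at d9 with acetate (1.42 ± 0.24, 0.00118). Adcy7, another adenylate cyclase gene, went the other way from Adcy3. Without acetate it fell to 50.5 to 64.0 CPM in d9 from 99.0 and 121 CPM in d5 (edgeR adjusted p = 0.00173). With acetate its levels were 51.0 to 68.5 CPM in d9 against 87.0 and 98.4 CPM in d5. For acetate averaged over both days, Adcy6 rose (log2 0.91 ± 0.19, adjusted p = 0.027) and Prkaca, a protein kinase A catalytic subunit gene, fell (-0.36 ± 0.09, 0.0416); both were chosen after their values were seen.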
